A study of Mus musculus with 18 samples.

Results

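*Ces1d*, which encodes a carboxylesterase that hydrolyses stored triacylglycerol, was described together with 9 genes that are known for their expression in fat cells: *Fabp4*, *Plin1*, *Cidec*, *Adipoq*, *Lep*, *Retn*, *Cfd*, *Ucp1* and *Adrb3*. The question was whether RNA polymerase II at *Ces1d* in mouse hearts moved together with the adipocyte genes. The measurements were chromatin immunoprecipitation followed by sequencing (ChIP-seq), in which DNA bound by a protein is recovered with an antibody and counted in peaks. Peaks were taken by the gene symbol that the deposited table gives them, to which unannotated peaks inside the gene body were added. This rule found 24 of the 101256 union peaks, of which 20 carried the symbol of a member and 4 lay unannotated inside *Ces1d* or *Plin1*. Of the 10 genes, 7 had at least 1 peak, and no peak carried the symbol of *Retn*, *Cidec* or *Lep*, whose gene bodies could not be searched for unannotated peaks because the table gives positions only for genes with a row. The genes were chosen by RNA polymerase II values of *Mettl3* KO against WT hearts, among which *Ces1d* stood low, so the values of that contrast are given for the 10 genes as a description, without a test.

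Fat cells surround and infiltrate the heart in small numbers, and their gene programme stores triacylglycerol in a droplet coated by perilipin 1 (*Plin1*) and CIDEC, carries fatty acids on FABP4 and secretes adipokines such as adiponectin (*Adipoq*), leptin (*Lep*), resistin (*Retn*) and adipsin (*Cfd*). Brown fat cells add the uncoupling protein *Ucp1*, which is induced by noradrenaline through the beta-3 adrenergic receptor (*Adrb3*). *Ces1d* is abundant in liver and white fat, and its product sits in the endoplasmic reticulum, where it mobilises triacylglycerol. *Fabp4* is also a product of capillary endothelial cells, which are frequent in the heart. RNA polymerase II, the enzyme that transcribes protein-coding genes, is concentrated at the start of active genes. CTCF is a DNA-binding protein that marks boundaries and loop anchors of chromatin and is bound at many sites irrespective of gene activity.

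Chromatin came from adult ventricles, with the tissue of 2 hearts processed in the ChIP protocol, and was precipitated with antibodies to RNA polymerase II or CTCF (2 libraries per genotype each) or with control IgG (1 library per genotype). Compared with WT hearts were those of *Trdn-as* KO mice, in which a polyadenylation site inserted into the first exon stops transcription of the antisense RNA in all cells, and those of *Mettl3* KO mice (Mettl3lox/lox:alphaMHC-MerCreMerpos). In the latter mice, tamoxifen activates a Cre recombinase driven by the cardiomyocyte-specific alphaMHC promoter, so that other cells of the heart retain *Mettl3*, the writer of m6A marks on RNA. The *Trdn-as* KO line was derived from an embryonic stem cell clone and backcrossed to C57BL/6. The methods describe Mettl3lox/lox control mice that received tamoxifen as well, but the ChIP-seq controls are labelled WT, and whether those hearts were exposed to it is not given in the sources used here. Thus the *Mettl3* deletion, the floxed allele, Cre and tamoxifen cannot be told apart in the comparison with WT. The sources do not say whether the replicates came from different animals, so the p-values measure the spread between these libraries, which may be technical. The values are the deposited read counts per peak after size factor normalization, rounded to whole numbers.

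The RNA polymerase II libraries held an estimated 1987635 to 4953289 reads in the union peaks and the IgG libraries 273526 to 813458. *Trdn-as* KO replicate 2 stood apart, with 18.6% of its mapped reads in peaks, against 35.5% to 42.6% in the other RNA polymerase II libraries. At the start of an antisense lncRNA gene at the *Trdn* locus, which the deposited table gives without a symbol (ENSMUSG00000112707, peak on chromosome 10 from 33129849 to 33132974), RNA polymerase II values were 530 and 595 for WT, 140 and 100 for *Trdn-as* KO and 503 and 491 for *Mettl3* KO, which follows the label of the *Trdn-as* KO libraries. The promoter peak of *Mettl3* had values of 177 and 202 for WT, 203 and 161 for *Trdn-as* KO and 240 and 235 for *Mettl3* KO, and a promoter that recombination may leave in place does not check the label. At the 6 peaks on the Y chromosome, no *Trdn-as* KO library had signal while all other libraries had, so sex and genotype cannot be told apart for the *Trdn-as* KO hearts. Peaks of the cardiomyocyte genes *Myh6* and *Ttn* carried high RNA polymerase II signal in every library (means of 10426 and 1263), and the hepatocyte genes *Alb*, *Ttr*, *Fgb* and *Cyp2e1* had no peak.

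The highest RNA polymerase II peak of *Ces1d* covered the start of the gene and held 19 and 14 estimated reads in the *Mettl3* KO libraries, against 115 and 194 in WT. *Ces1d* (ENSMUSG00000056973) lies on the minus strand of chromosome 8 from 93892696 to 93924466 (GRCm39), and this peak reaches from 93923962 to 93925038, with its centre 34 nt from the annotated start. The normalized values were 157 and 183 for WT, 131 and 57 for *Trdn-as* KO and 23 and 22 for *Mettl3* KO. The genotypes did not overlap, with WT highest, *Trdn-as* KO in between and *Mettl3* KO lowest. The mean of the *Mettl3* KO libraries, 22.5 ± 0.707 (SD, n = 2), was 13.2% of the WT mean of 170 ± 18.4 (SD, n = 2), a log2 fold change of -2.86 with a standard error of 0.30. In RPM, reads scaled to the mapped reads of the library, the peak held 13.3 and 16.6 for WT and 1.75 and 1.82 for *Mettl3* KO. The IgG library of *Mettl3* KO hearts held 0.663 RPM, with an exact 95% Poisson interval from 0.216 to 1.55 that covers counting error only, so both *Mettl3* KO libraries remained slightly above this interval. In all 52655 peaks tested, 1.19% passed an adjusted p of 0.05 in this contrast (0.712% higher and 0.482% lower), and nothing is read from the place of *Ces1d* among them, since it was chosen there.

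In *Trdn-as* KO hearts the replicates differed at the same peak, and the comparison with WT did not pass the test. The mean of 94 ± 52.3 (SD, n = 2) was 55.3% of WT, with a log2 fold change of -0.96, a standard error of 0.30 and an adjusted p of 0.24 (limma), and this comparison shares its WT libraries with the *Mettl3* KO contrast. Without *Trdn-as* KO replicate 2, the library with few reads in peaks, the log2 fold change was -0.37 (adjusted p = 0.69 from limma), and without replicate 1 it was -1.56 (adjusted p = 0.013 from limma), so the call depends on a single library. Over all alternatives the adjusted p ranged from 0.013 to 1. Of the 14 member peaks that passed the filter for RNA polymerase II, 0 were called in *Trdn-as* KO against WT, where 0.304% of all peaks were called, and 5 had an unadjusted p under 0.05 (limma), as had 7.70% of all peaks. In RPM, the libraries held 9.46 and 2.62, where the IgG library of the genotype held 1.13 with an interval from 0.418 to 2.48.

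**Figure D1:**
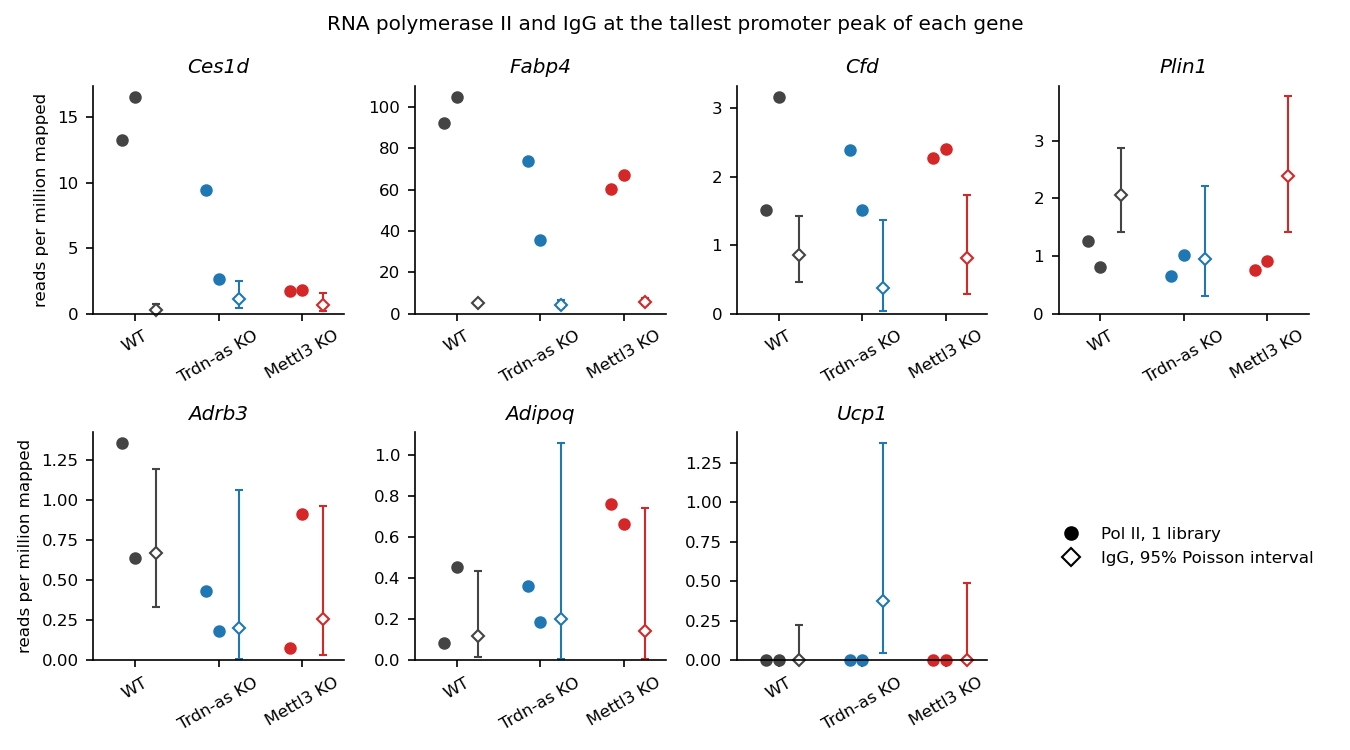
RNA polymerase II (filled circles, 1 per library) and IgG (open diamonds with exact 95% Poisson intervals) in RPM at the promoter peak with the highest mean RNA polymerase II signal of each gene, by genotype, with a y axis of its own for each gene. *Ces1d* was at 13.3 and 16.6 in WT libraries against 1.75 and 1.82 in those of *Mettl3* KO, *Fabp4* stayed far above IgG in all 6 libraries, and the promoter peaks of *Plin1*, *Adrb3*, *Adipoq* and *Ucp1* lay near or under IgG.

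The smaller peaks next to the start of *Ces1d* were also lowest in *Mettl3* KO. The peak centred 2001 nt into the gene (93922104 to 93922825) had values of 48 and 41 for WT, 30 and 22 for *Trdn-as* KO and 2 and 0 for *Mettl3* KO. The peak 1099 nt into the gene (93923184 to 93923549) had 16 and 20 for WT, 25 and 12 for *Trdn-as* KO and 1 and 2 for *Mettl3* KO. Signal was therefore lowest in *Mettl3* KO at both, at 0 to 2 estimated reads per library, whereas WT and *Trdn-as* KO libraries overlapped at the peak 1099 nt into the gene. On the other side of the start, the peak 1422 nt upstream (93925592 to 93926183) had 29 and 27 for WT, 30 and 16 for *Trdn-as* KO and 12 and 13 for *Mettl3* KO, again lowest in *Mettl3* KO. The remaining 3 peaks with the symbol *Ces1d* did not pass the filter of 10 in at least 2 libraries. Their highest value in a *Mettl3* KO library was 2.

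Deep inside the gene, the genotypes differed by a few reads only. The unannotated peak 25758 nt from the start (93898429 to 93898987) had 19 and 22 for WT, 19 and 26 for *Trdn-as* KO and 17 and 18 for *Mettl3* KO. The unannotated peak 17081 nt from the start (93907090 to 93907680) had 19 and 15 for WT, 21 and 22 for *Trdn-as* KO and 16 and 18 for *Mettl3* KO. At the former, 2 of 6 RNA polymerase II libraries exceeded the IgG interval of their genotype, and at the latter 4 of 6 did, so both were close to background. *Mettl3* KO was lowest at the former, and at the latter it overlapped WT while *Trdn-as* KO was highest.

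Within 250000 nt of the promoter peak of *Ces1d* there were 16 union peaks outside the gene. Only 2 of them passed the filter for RNA polymerase II, and 1 was called in *Mettl3* KO against WT (0.482% of all peaks were called lower). This unannotated peak, 19934 nt upstream of *Ces1d* (93943831 to 93944969), had values of 99 and 112 for WT, 101 and 63 for *Trdn-as* KO and 45 and 50 for *Mettl3* KO. It fell by 1.13 on the log2 scale in *Mettl3* KO (log2 fold change -1.13, standard error 0.28, adjusted p = 0.024 from limma), lower in both libraries than in either WT library. The call was lost without any single WT or *Mettl3* KO library (adjusted p from 0.37 to 0.73 from limma) and with mapped reads as library size (adjusted p = 0.69). In *Trdn-as* KO the log2 fold change was -0.40 (adjusted p = 0.81 from limma), with -0.73 without *Trdn-as* KO replicate 1 and -0.06 without replicate 2. The neighbouring carboxylesterase genes *Ces1a*, *Ces1b* and *Ces1c* of the same cluster had mean RNA polymerase II values of 2.33, 7.67 and 0.50 over the 6 libraries and were not tested.

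**Figure D2:**
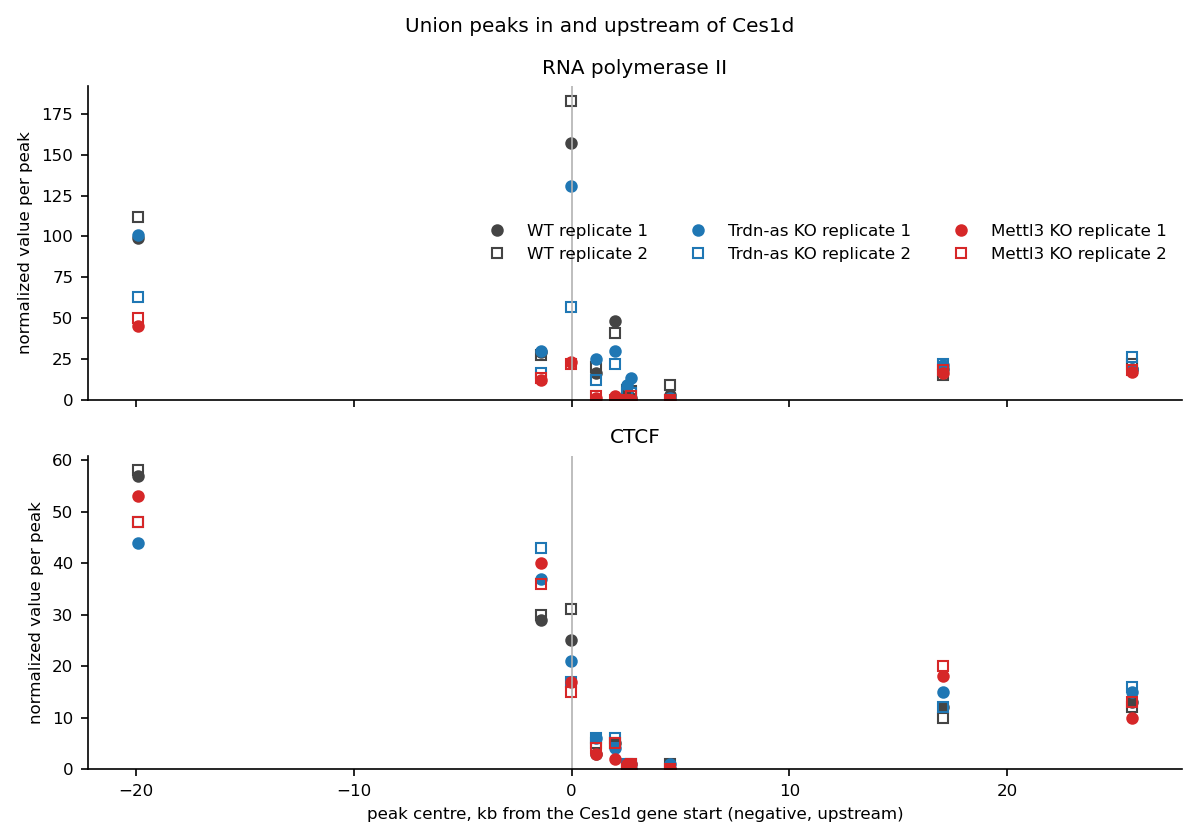
Normalized values of RNA polymerase II (upper panel) and CTCF (lower panel) at each union peak in and upstream of *Ces1d*, plotted by the distance of the peak centre from the gene start in kb, with 1 symbol per library. RNA polymerase II in *Mettl3* KO libraries was 23 and 22 at the start and 45 and 50 at the peak 19934 nt upstream, and all 6 libraries lay between 15 and 26 at the peaks 17081 and 25758 nt inside the gene.

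*Fabp4* was the only member besides *Ces1d* with strong RNA polymerase II signal at a promoter peak, and it differed far less between the genotypes. *Fabp4* (ENSMUSG00000062515) lies on the minus strand of chromosome 3 from 10269148 to 10273636 and is covered by a peak from 10267272 to 10274016. The values were 1093 and 1159 for WT, 1021 and 776 for *Trdn-as* KO and 796 and 807 for *Mettl3* KO. WT was highest, and the *Mettl3* KO values lay within the range of the *Trdn-as* KO libraries. The *Mettl3* KO mean of 801.5 ± 7.78 (SD, n = 2) was 71.2% of the WT mean of 1126 ± 46.7 (SD, n = 2), a log2 fold change of -0.49 with a standard error of 0.14. In *Trdn-as* KO the log2 fold change was -0.34 with a standard error of 0.14, and -0.54 to -0.14 with 1 library left out. With all libraries the adjusted p was 0.50 (limma). That adjusted p was 0.0027 without *Trdn-as* KO replicate 1, 0.53 without replicate 2 and 0.0097 with the total signal in peaks as library size.

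Further upstream of *Fabp4*, the peak from 10278336 to 10279511 had 178 and 215 for WT, 152 and 116 for *Trdn-as* KO and 128 and 102 for *Mettl3* KO. The peak from 10276556 to 10277275 had 84 and 72 for WT, 55 and 45 for *Trdn-as* KO and 36 and 50 for *Mettl3* KO. At both, each WT library was above each knockout library and the knockouts overlapped. The log2 fold changes in *Mettl3* KO were -0.77 and -0.86, and those in *Trdn-as* KO were -0.56 (adjusted p = 0.51 from limma) and -0.63 (adjusted p = 0.63 from limma). The other 2 peaks of *Fabp4* had at most 12 in any library and were not tested. The 5 endothelial marker genes with a peak, *Cdh5*, *Kdr*, *Tie1*, *Tek* and *Egfl7*, had a summed signal of 1182 and 1274 for WT, 1353 and 986 for *Trdn-as* KO and 1205 and 1165 for *Mettl3* KO. None of them was called in either knockout (2 and 0 had an unadjusted p under 0.05 in *Mettl3* KO and *Trdn-as* KO), where 1.19% and 0.304% of all peaks were called and 15.5% and 7.70% had such a p, and *Pecam1* had no peak.

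The lipid droplet gene *Plin1* (ENSMUSG00000030546, minus strand of chromosome 7 from 79369966 to 79382651) had low RNA polymerase II values at both promoter peaks, and the highest value within its interval was at an unannotated peak. The promoter peak with the higher mean (79377676 to 79379915) had 15 and 9 for WT, 9 and 22 for *Trdn-as* KO and 10 and 11 for *Mettl3* KO, and none of the 6 libraries exceeded the IgG interval. The other promoter peak (79384436 to 79384794) had 8 to 16, and 4 of 6 libraries exceeded the IgG interval. In contrast, the unannotated peak 11300 nt from the start (79371028 to 79371675), near the 3′ end of the gene, had 106 and 101 for WT, 80 and 65 for *Trdn-as* KO and 146 and 141 for *Mettl3* KO. The genotypes did not overlap there, and *Mettl3* KO, lowest at *Ces1d*, was highest. The log2 fold change was 0.47 in *Mettl3* KO (standard error 0.25) and, with the same standard error, -0.51 in *Trdn-as* KO (adjusted p = 0.63 from limma). No gene start is assigned to this peak in the deposited table, so the gene that it belongs to is not known.

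The adipokine genes and the brown fat genes had little or no RNA polymerase II. At *Cfd* (ENSMUSG00000061780, chromosome 10 from 79726687 to 79728489, plus strand), the highest peak (79728067 to 79729452) had 18 and 35 for WT, 33 and 33 for *Trdn-as* KO and 30 and 29 for *Mettl3* KO. The WT libraries spanned all others, and each of the 6 libraries exceeded the IgG interval of its genotype. At *Adipoq* (ENSMUSG00000022878, chromosome 16 from 22965286 to 22976778, plus strand), the only peak lay 5071 nt from the start (22970111 to 22970602). It had 1 and 5 for WT, 5 and 4 for *Trdn-as* KO and 10 and 8 for *Mettl3* KO, and 2 of 6 libraries exceeded the IgG interval. *Mettl3* KO was highest there, at 8 and 5 estimated reads. At *Adrb3* (ENSMUSG00000031489, chromosome 8 from 27715804 to 27740644), the peak from 27743464 to 27744309 had 16 and 7 for WT, 6 and 4 for *Trdn-as* KO and 1 and 11 for *Mettl3* KO, so the replicates differed as much as the genotypes. At *Ucp1* (ENSMUSG00000031710, chromosome 8 from 84016981 to 84025081, plus strand), the peak from 84020523 to 84020681 had 0 in all 6 RNA polymerase II libraries, where a count of 0 allows 0.248 to 0.398 RPM, depending on the library. Its only IgG signal was 2 estimated reads in the *Trdn-as* KO library.

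Per kilobase of peak, the mean RNA polymerase II level over the 6 libraries was 10.7 RPM at *Fabp4* and 7.04 RPM at *Ces1d*. At the other promoter peaks it was 1.60 RPM at *Cfd*, 0.849 RPM at *Adipoq*, 0.707 RPM at *Adrb3*, 0.403 RPM at *Plin1* and 0 at *Ucp1*. On the same scale, the mean of the 3 IgG libraries at these 7 peaks lay between 0.315 and 0.806 RPM. In WT libraries, *Fabp4* (13.7 and 15.6 RPM per kilobase) and *Ces1d* (12.3 and 15.4) overlapped, while *Cfd* had 1.10 and 2.29. Among the 7 members with a peak, *Fabp4* was thus the only one whose promoter peak was as occupied as that of *Ces1d* in WT. In *Mettl3* KO libraries the *Fabp4* peak held 8.96 and 9.92 RPM per kilobase against 1.62 and 1.69 at *Ces1d*. The peaks compared at *Cfd*, *Adrb3*, *Ucp1*, *Plin1* and *Adipoq* were centred 2073 to 5071 nt from the gene start. The unannotated peak near the 3′ end of *Plin1* held 13.8 and 14.1 RPM per kilobase in WT. In bulk tissue, fewer cells of a type and less RNA polymerase II per cell cannot be told apart, and which cells gave the *Ces1d* signal was not tested.

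Promoter sequences of *Adipoq*, *Lep*, *Ucp1* and *Cfd* are shown as examples, 3 with a motif match and 1 without, of genes whose start was covered by no union peak with the symbol: the nearest ones of *Cfd*, *Ucp1* and *Adipoq* were centred 1198, 3621 and 5071 nt from it, and *Lep* had none. They are the 250 bases before the gene start from RefSeq (GRCm38.p6, a build other than that of the peaks), available for 7 of the 10 genes and not for *Ces1d*, *Fabp4* and *Adrb3*. Capitals mark matches on either strand to 5 motifs known from promoters. The motif TATAAA is the core promoter box that positions the polymerase. The motif CCAAT is the box bound by the factor NF-Y. The motif TTGCGCAA is the palindromic site of C/EBP factors. The motif AGGTCA is the core recognised by nuclear receptors. DR1, the last of them, is a direct repeat of that core with 1 base between the copies, so each DR1 match overlaps the core motif.
*Adipoq*, chr16:23146286-23146535, plus strand: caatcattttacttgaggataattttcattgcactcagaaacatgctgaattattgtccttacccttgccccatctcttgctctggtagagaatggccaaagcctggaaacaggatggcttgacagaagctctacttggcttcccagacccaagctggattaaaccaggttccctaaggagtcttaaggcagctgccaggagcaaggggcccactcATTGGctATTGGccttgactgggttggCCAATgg
*Lep*, chr6:29059971-29060220, plus strand: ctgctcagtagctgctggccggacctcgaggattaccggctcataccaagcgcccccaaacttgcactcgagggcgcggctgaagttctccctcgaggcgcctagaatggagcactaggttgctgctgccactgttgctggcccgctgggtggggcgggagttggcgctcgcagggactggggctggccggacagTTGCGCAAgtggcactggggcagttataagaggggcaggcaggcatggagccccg
*Ucp1*, chr8:83290098-83290347, plus strand: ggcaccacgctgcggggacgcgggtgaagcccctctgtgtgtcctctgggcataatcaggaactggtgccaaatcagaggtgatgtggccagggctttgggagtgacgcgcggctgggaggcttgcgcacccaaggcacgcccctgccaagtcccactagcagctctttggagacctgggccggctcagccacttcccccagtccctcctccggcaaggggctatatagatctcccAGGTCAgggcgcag
*Cfd*, chr10:79890603-79890852, plus strand: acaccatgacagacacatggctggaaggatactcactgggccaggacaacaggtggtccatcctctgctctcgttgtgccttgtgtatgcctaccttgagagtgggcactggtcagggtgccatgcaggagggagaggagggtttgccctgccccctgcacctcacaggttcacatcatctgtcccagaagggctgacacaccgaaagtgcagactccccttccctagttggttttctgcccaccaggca

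*Adipoq* had 3 CCAAT matches within the last 40 bases before the start, a motif found in 33.8% of the 32851 promoter windows of the same length. *Lep* had 1 TTGCGCAA, found in 0.164% of the windows, and *Ucp1* had 1 AGGTCA, found in 14.0%. No match to the 5 motifs was found in the windows of *Cfd*, *Plin1*, *Retn* and *Cidec*. TATAAA was present in 12.4% and DR1 in 0.0335% of all windows and in none of the members. The GC content ranged from 48.8% at *Adipoq* to 65.6% at *Lep*, against a median of 52.4% over all windows.

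CTCF, a measure that had no part in the choice of the genes, passed the test at none of the members. Of the 14 member peaks that passed the filter for CTCF, 0 were called in *Mettl3* KO against WT and 0 in *Trdn-as* KO against WT (limma), where 0.185% and 0.587% of all 60649 peaks tested were called. An unadjusted p under 0.05 (limma) was reached by 6 and 5 of the 14 peaks and by 15.7% and 10.2% of all peaks. Those 6 all lay at *Ces1d* or *Fabp4* and those 5 at *Ces1d*, *Fabp4* or *Plin1*, so they are neighbouring peaks of few genes. At *Ces1d* they went in both directions. At the *Ces1d* start peak the CTCF library values were 25 and 31 for WT, 21 and 17 for *Trdn-as* KO and 17 and 15 for *Mettl3* KO. They were highest in WT, with log2 fold changes of -0.77 in *Mettl3* KO (standard error 0.19, adjusted p = 0.088 from limma, 0.056 to 0.71 over the alternatives) and -0.54 in *Trdn-as* KO (adjusted p = 0.36 from limma, standard error 0.19). The decrease in RNA polymerase II at the same peak stands beside these low CTCF values, and its part in them was not tested. Normalized IgG values there were 13 for WT, 39 for *Trdn-as* KO and 23 for *Mettl3* KO, each from 5 or 6 estimated reads. The CTCF values of both knockouts lay under the IgG value of their genotype, and whether they exceed background was not tested.

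The peak 1422 nt upstream of *Ces1d* had CTCF values in the other order, with 29 and 30 for WT, 37 and 43 for *Trdn-as* KO and 40 and 36 for *Mettl3* KO. Neither difference passed the test (log2 fold change 0.42, adjusted p = 0.35, and 0.35, adjusted p = 0.27, both from limma). The highest CTCF signal of the members was at *Plin1* (79377676 to 79379915), with 169 and 167 for WT, 173 and 168 for *Trdn-as* KO and 158 and 163 for *Mettl3* KO, and log2 fold changes of -0.07 for *Mettl3* KO and 0.021 for *Trdn-as* KO, the latter -0.024 with total signal in peaks as library size. *Cfd* (71 to 87), *Adrb3* (67 to 90) and *Adipoq* (38 to 53), which had little RNA polymerase II, also held CTCF in all 6 libraries, with adjusted p from 0.37 to 0.69 over both knockouts (limma). At the peak over *Fabp4* CTCF was 105 and 128 for WT, 104 and 77 for *Trdn-as* KO and 71 and 112 for *Mettl3* KO. The *Mettl3* KO values spanned those of *Trdn-as* KO and overlapped WT (adjusted p = 0.30 for *Mettl3* KO and 0.48 for *Trdn-as* KO, both from limma). Normalized IgG values there were 214 for WT, 151 for *Trdn-as* KO and 193 for *Mettl3* KO, above both CTCF libraries of each genotype. Whether CTCF exceeds background at this peak was not tested.

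**Figure D3:**
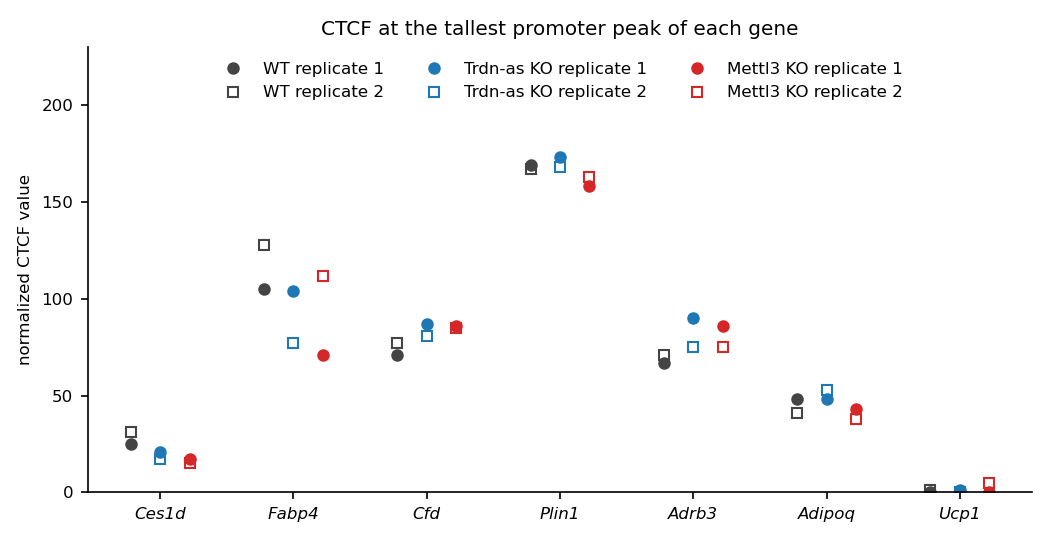
Normalized CTCF values at the promoter peak with the highest mean RNA polymerase II signal of each gene, with 1 symbol per library. *Plin1* had 158 to 173, *Fabp4* had the widest absolute range, from 71 to 128, and *Ucp1* had 0 to 5. IgG is not shown.

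Adipocyte genes outside the 10 members that did carry RNA polymerase II in the heart were not called in *Mettl3* KO. Of 14 further genes of adipocyte identity, 9 had a peak and 7 were tested. Of these 7, 0 were called in *Mettl3* KO or in *Trdn-as* KO against WT (limma), where 1.19% and 0.304% of all peaks were called. An unadjusted p under 0.05 (limma) was reached by 0 and 2 of them, against 15.5% and 7.70% of all peaks. *Pparg*, the nuclear receptor that directs fat cell differentiation, had RNA polymerase II values of 227 and 280 for WT, 220 and 173 for *Trdn-as* KO and 283 and 282 for *Mettl3* KO. *Cebpa*, a transcription factor that acts with it, had a log2 fold change of 0.31 in *Mettl3* KO (adjusted p = 0.33 from limma). *Plin4*, a perilipin of small droplets, had 0.08 (adjusted p = 0.82 from limma), and *Thrsp*, a regulator of fatty acid synthesis, had -0.19 (adjusted p = 0.76 from limma). The median log2 fold change of the 7 genes was 0.08 in *Mettl3* KO, equal to that of all peaks at 0.08, and -0.15 in *Trdn-as* KO, against -0.07 for all peaks. Most of the signal of this list came from *Plin4* and *Cebpa*, with WT means of 901 and 491 against list sums of 1874 and 2082. Which cells of the heart gave it was not tested, so these values do not measure fat cells.

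Of the 7 further genes of brown fat cells, 4 were tested and 0 were called in either knockout (limma), against the 1.19% and 0.304% called among all peaks. An unadjusted p under 0.05 (limma) was reached by 1 in each knockout, against 15.5% and 7.70% of all peaks. *Elovl3*, a fatty acid elongase, had a log2 fold change of 1.28 in *Trdn-as* KO (adjusted p = 0.079 from limma), and *Ebf2*, a regulator of brown fat precursors, had 0.70 in *Mettl3* KO (adjusted p = 0.10 from limma). *Prdm16* and *Cidea* had 0.20 and 0.06 in *Mettl3* KO.

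Of the 13 tested genes of lipid synthesis, 1 was called in each knockout (1.19% and 0.304% of all peaks). An unadjusted p under 0.05 was reached by 7 genes for *Mettl3* KO and 2 for *Trdn-as* KO, against 15.5% and 7.70% of all peaks, and the median log2 fold change was 0.38 and 0.14, against 0.08 and -0.07 for all peaks. Among them, *Scd1*, the stearoyl-CoA desaturase, rose by a log2 fold change of 0.87 in *Mettl3* KO (adjusted p = 0.034 from limma), from 94 and 151 in WT to 219 and 219. With 1 library left out, this log2 fold change ranged from 0.53 to 1.21. *Agpat2*, an acyltransferase of triacylglycerol synthesis, fell by 0.78 on the log2 scale in *Trdn-as* KO (adjusted p = 0.0034 from limma), and the call was lost without *Trdn-as* KO replicate 2 (adjusted p = 0.089 from limma) or any single WT or *Mettl3* KO library (adjusted p from 0.37 to 1). The 4 genes of this list with the highest signal otherwise, *Dgat2*, *Fasn*, *Acly* and *Dgat1*, had log2 fold changes of -0.17, 0.36, 0.46 and 0.44 in *Mettl3* KO and were not called. The call of *Scd1* was lost without any single WT or *Mettl3* KO library (adjusted p from 0.27 to 0.84 from limma). All 9 genes of lipolysis and lipid uptake were tested, among them *Lpl*, the lipase of the capillary wall, *Pnpla2*, the main triacylglycerol lipase of the droplet, its inhibitor *G0s2* and its activator *Abhd5*, and 0 were called in either knockout (limma; 2 and 1 had an unadjusted p under 0.05), the background being the same. Their log2 fold changes in *Mettl3* KO lay between -0.01 and 0.51. Of 18 other carboxylesterase genes, 5 had a peak and only *Ces2g* was tested, with a log2 fold change of 0.06 in *Mettl3* KO (adjusted p = 0.97 from limma).

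**Figure D4:**
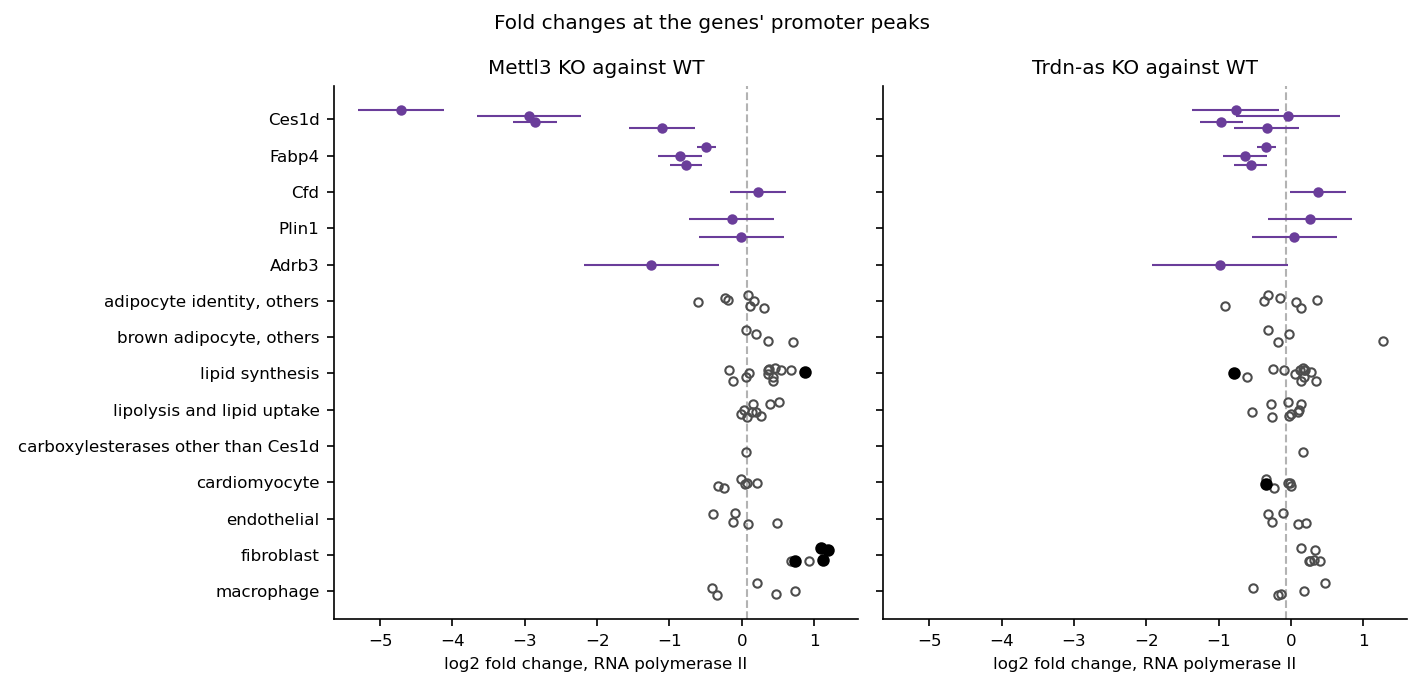
Log2 fold changes of RNA polymerase II in *Mettl3* KO (left) and *Trdn-as* KO (right) against WT for the tested promoter peaks of the members (purple, with standard errors) and for 1 peak per gene of the other lists (open circles, filled where the adjusted p was under 0.05), with the median of all peaks as a dashed line. In *Mettl3* KO the *Ces1d* start peak lay at -2.86, while the lists of adipocyte and lipid genes spread around their medians of 0.08 to 0.38.

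Of the markers of other cell types, fibroblast genes were higher in *Mettl3* KO, where *Ces1d* was lowest. All 6 fibroblast genes were tested, and 4 were called higher in *Mettl3* KO against WT (0.712% of all peaks were called higher), namely *Pdgfra* (log2 fold change 1.12), *Col1a1* (1.19), *Col1a2* (1.09) and *Tcf21* (0.74), with adjusted p from 0.000187 to 0.0207 (limma). Their calls were lost without any single WT or *Mettl3* KO library and with mapped reads as library size, where 0 of 6 were called. The summed fibroblast signal was 824 and 867 for WT, 1233 and 886 for *Trdn-as* KO and 1661 and 1626 for *Mettl3* KO. Of 6 mesothelial genes, which mark the outer lining of the heart, only *Wt1* was tested, and it fell by 1.02 on the log2 scale in *Mettl3* KO (adjusted p = 0.034 from limma), with 139 and 114 for WT and 70 and 54 for *Mettl3* KO. Without any single WT or *Mettl3* KO library its adjusted p was 0.28 to 0.84. The 6 cardiomyocyte genes had a summed signal of 21636 and 23388 for WT, 21641 and 16771 for *Trdn-as* KO and 22777 and 23087 for *Mettl3* KO. *Myh6*, the alpha myosin heavy chain whose promoter also drives the Cre transgene, was the only one of them called. Its RNA polymerase II values were 10654 and 11527 for WT, 9901 and 7625 for *Trdn-as* KO and 11283 and 11566 for *Mettl3* KO. They were lower in *Trdn-as* KO (log2 fold change -0.35, adjusted p = 0.029 from limma). With 1 library left out, this log2 fold change ranged from -0.54 to -0.16. The CTCF values of *Myh6* were 299 and 289 for WT, 340 and 322 for *Trdn-as* KO and 455 and 480 for *Mettl3* KO. They were higher in *Mettl3* KO (log2 fold change 0.67, adjusted p = 6.9e-05 from limma), where DNA of the gene and of the transgene cannot be told apart. Normalized IgG values at this peak were 1003 for WT, 1057 for *Trdn-as* KO and 1354 for *Mettl3* KO. They lay above both CTCF libraries of each genotype. IgG was also highest in *Mettl3* KO in RPM, at 39.1 (Poisson interval 34.7 to 43.8). It was 23.8 (21.5 to 26.3) in WT and 30.6 (26.0 to 35.7) in *Trdn-as* KO. Whether CTCF exceeds background at this peak was not tested. Without any single library the CTCF call was lost (adjusted p from 0.26 to 0.71 from limma), and the RNA polymerase II call was lost without *Trdn-as* KO replicate 2 (adjusted p = 0.18) or any single WT or *Mettl3* KO library (0.83 to 1). The 5 macrophage genes with a peak had sums of 180 and 186 in WT, 174 and 129 in the *Trdn-as* KO and 193 and 146 in the *Mettl3* KO libraries. Of the 6 hepatocyte genes, 4 had no peak, and *Apoa1* and *Apob* had mean values of 27.2 and 2.50. Whether the cell composition had a part in the *Ces1d* signal was not tested.

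**Figure D5:**
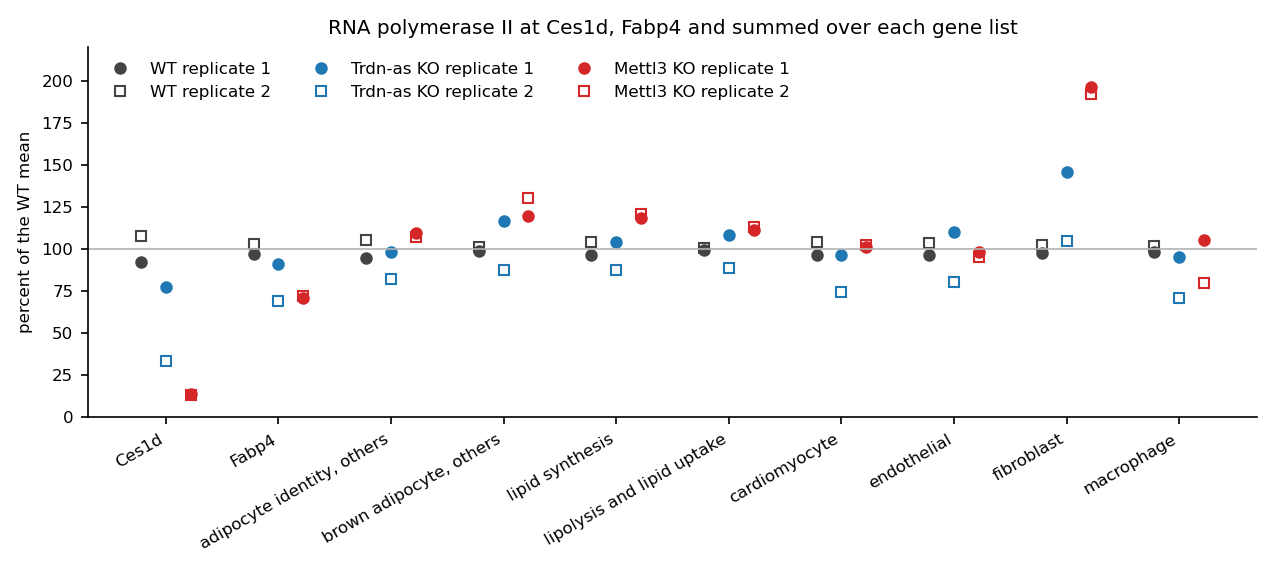
RNA polymerase II at the start peak of *Ces1d*, at *Fabp4* and summed over 1 peak per gene of each list, as a percentage of the WT mean, with 1 symbol per library. In *Mettl3* KO libraries *Ces1d* was at 13.5% and 12.9%, *Fabp4* at 70.7% and 71.7%, adipocyte identity genes at 109.4% and 107% and fibroblast genes at 196% and 192%.

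The 8 promoter peaks of other genes with the RNA polymerase II pattern most like that of *Ces1d* are named as a description. Likeness was the Euclidean distance between log2 values relative to the WT mean over the 6 libraries, among 19308 tested promoter peaks of other genes. It includes the values by which *Ces1d* was chosen, and few of these peaks belong to the adipocyte lists. Nothing is therefore read from the absence of listed genes. The 8 nearest peaks belonged to the 7 genes *Asb8*, *Clu*, *Kansl1l*, *Corin*, *Aqp1* (2 peaks), *Tef* and *Flt1*, at distances of 0.90 to 1.14. They were centred 1406 to 5048 nt from the start of their gene, against 34 nt for the *Ces1d* peak. The WT mean was 25 or less at 7 of these 8 peaks, against 170 at *Ces1d*. *Corin*, which encodes the cardiac protease that activates natriuretic peptide, had the highest, with 41 and 65 for WT, 50 and 20 for *Trdn-as* KO and 13 and 6 for *Mettl3* KO.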

How the data were processed

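ChIP-seq for RNA polymerase II and CTCF (2 libraries per genotype each) and IgG (1 per genotype) was analysed in 15 libraries. 3 input libraries were not used here. Per the study's methods, reads were trimmed (Trimmomatic 0.39) and aligned to GRCm39 (STAR 2.7.11b), duplicates were removed (Picard 3.1.1), peaks of all libraries were merged into union peaks, and reads were counted per peak (featureCounts). The deposited values are a score: counts normalized by the authors with DESeq2 1.36.0 and rounded to whole numbers, with peaks annotated to genes whose start lies near (the methods give 5000 nt) by gene ID and, where the gene has one, symbol. They are not raw counts, so no count model was used.

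Values were tested on the log2(value + 1) scale with limma 3.58.1 (R 4.3.3) with a variance trend, for peaks that reached 10 in 2 or more of an antibody's 6 libraries, with the 3 genotypes in 1 model and Benjamini-Hochberg adjustment over all tested peaks (threshold 0.05). The value of 1 read was estimated from the spacing of the values of RNA polymerase II and IgG libraries, which gave estimated reads and, with the mapped reads that the study lists, RPM. CTCF values did not allow this, so their depth is unknown. Estimated reads in peaks were 1987635 to 4953289 (RNA polymerase II) and 273526 to 813458 (IgG). Intervals are exact Poisson intervals (95%) and, like the limit of 3 reads that a 0 allows, cover counting error only.

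A gene was represented by its promoter peak with the highest mean RNA polymerase II value. All members were named, and of each list the genes called and at most 4 more by mean value. Of the peaks within 250000 nt of the *Ces1d* start, those called were named, as were the 8 promoter peaks most like *Ces1d*. The cell type lists were given as sums and counts. The members and lists were chosen with earlier results of these data known. The alternatives were other pseudocounts, filters, library sizes and models, a replicate block, and leaving out each library. The test was checked on simulated data.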

Additional observations from a re-analysis of the deposited data

How the results depend on the processing

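At *Ces1d*, the log2 fold change of RNA polymerase II in *Mettl3* KO stayed between -3.01 and -2.67 over 15 alternatives. The number of peaks called over the whole table moved far more. In the order *Mettl3* KO against WT, *Trdn-as* KO against WT and *Trdn-as* KO against *Mettl3* KO, RNA polymerase II called 629, 160 and 790 peaks as reported. These were 0, 2 and 1 without a filter, 1105, 213 and 1484 with at least 20 in 2 libraries, 2237, 380 and 1494 with total signal as library size, 2, 4 and 12 without a variance trend, and 4861, 47 and 128 with only the 2 genotypes compared. With mapped reads as library size they were 32, 125 and 223, and the median of all *Trdn-as* KO fold changes became -0.66. With pseudocounts of 0.5 and 5 they were 516, 122 and 617, and 987, 230 and 1282. Leaving out 1 library gave 0 to 4975, 17 to 2185 and 11 to 9789, where the lone library of a genotype is assumed to vary like the others. CTCF called 112, 356 and 828 peaks as reported, 0, 58 and 73 without a filter, 528, 371 and 1259 with at least 20, 627, 462 and 1195 with total signal, 0, 156 and 244 without a trend, 0, 37 and 26 with only the 2 genotypes compared, and 0, 1 to 40 and 1 to 26 when leaving out 1 library. The CTCF log2 fold change of *Plin1* in *Trdn-as* KO turned from 0.021 to -0.024 with total signal. Of the results for single peaks and lists, 463 were rated the same, 77 lost the call, 3 gained it, 9 moved and 1 turned. The same meant an equal direction and side of the threshold at tested peaks, including peaks never called. For the members in *Mettl3* KO, which were not tested, it meant a fold change within the standard error, and for the fibroblast count a similar number. Without a filter or without a variance trend, *Scd1*, *Wt1*, *Agpat2*, *Myh6*, the 4 fibroblast genes and the peak upstream of *Ces1d* lost their calls. The causes were not tested.

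The replicate numbers did not pair the samples. Deviations of libraries with the same number correlated at -0.01 to 0.00 for RNA polymerase II and between -0.24 and 0.01 for CTCF. With a replicate block, RNA polymerase II called 756, 201 and 950 peaks and CTCF 2, 236 and 376. The call of *Myh6* in *Trdn-as* KO was lost with it (adjusted p = 0.06 from limma).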
